A study of Mus musculus with 6 samples.

Results

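The 10 genes described here encode feedback inhibitors of the RAS-ERK pathway and ETS transcription factors that the pathway controls: Spry1, Spry2, Spry4, Spred1, Spred2, Dusp4, Dusp5, Dusp6, Etv4 and Etv5. They were found by gene name among the probes for genes, and every probe was kept. This gave 13 probes of the 20868 on the array, or 10 of its 19496 gene names, with 2 probes each for Dusp4, Spred1 and Spred2. RNA came from HACA cells, a mouse skin carcinoma line, on 6 Agilent 2-colour arrays that hybridise 2 RNA samples together, each in its own dye. On every array 1 sample was RNA of control cells with a short hairpin RNA (a transcript that lowers its target) against GFP, called shGFP. The other sample was RNA of cells with a hairpin against Loxl2 (shLoxl2, a lysyl oxidase-like enzyme) or against Snail (shSnail, the repressor encoded by Snai1). Each of the 2 shLoxl2 samples was hybridised in Cy3 on 1 array and in Cy5 on another, which makes 4 arrays. Each of the 2 shSnail samples was hybridised in Cy5 only. Thus n = 2 for shLoxl2 and n = 2 for shSnail. All groups therefore carried a hairpin, and the labels give no treatment, time or tissue, no statement on clones, and none on whether the 2 samples of a group were separate cultures. The p-values then measure only the spread between these samples and their arrays, which may be technical. The shGFP RNA was treated as 1 control sample, so a test against it leaves out the control's own spread.

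Growth factor receptors switch on RAS, which acts through the kinases RAF, MEK and ERK. Active ERK raises transcription of its own inhibitors: Sprouty (Spry) and Spred proteins restrain signalling upstream, and dual-specificity phosphatases (Dusp) remove the activating phosphates from MAP kinases. Etv4 and Etv5, ETS factors of the PEA3 subfamily, are raised by the same signal, and for this reason such transcripts are often read together as a gauge of ERK output in epithelial and carcinoma cells.

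Promoter sequences are shown for Dusp6 and Spred1, the members whose signal was lowest relative to shGFP in shSnail cells. They are the 250 bases before each RefSeq transcription start (assembly GRCm38.p6), 5′ to 3′ on the gene's strand, which is the plus strand for both. Capitals mark matches to CGGAA, an ETS-type core, on either strand (TTCCG on the other).
Dusp6, chr10:99262981-99263230: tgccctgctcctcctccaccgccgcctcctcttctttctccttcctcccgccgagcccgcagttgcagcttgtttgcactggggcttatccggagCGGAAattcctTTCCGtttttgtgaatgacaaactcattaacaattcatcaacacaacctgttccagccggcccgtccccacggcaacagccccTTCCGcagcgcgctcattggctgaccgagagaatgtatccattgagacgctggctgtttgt
Spred1, chr2:117120821-117121070: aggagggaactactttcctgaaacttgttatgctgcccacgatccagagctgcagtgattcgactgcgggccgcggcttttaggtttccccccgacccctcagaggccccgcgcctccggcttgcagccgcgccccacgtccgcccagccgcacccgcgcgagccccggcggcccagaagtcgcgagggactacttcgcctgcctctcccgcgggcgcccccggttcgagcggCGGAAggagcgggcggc
The window held 3 such matches in Dusp6 and 1 in Spred1. A RefSeq promoter entry was matched for 7 of the 10 members, all but Dusp4, Etv4 and Spry4, and 4 of the 7 genes had a match: Dusp6, Spred1, Spred2 with 2 and Dusp5 with 1. Among all 32851 promoter windows of this length, 25.2% held a match. The Snail-type E-box CAGGTG, searched on both strands, was found in 0 of the 7 genes and in 17.2% of all windows, and the AP-1 motif TGANTCA in 0 of the 7 and in 6.75% of all windows. The motifs were chosen with these sequences in view, and a match describes the letters only. Spred2 and Dusp5, which also hold the ETS-type core, did not pass the test in any of the 3 comparisons below.

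Of all spots, 85.4 to 92.4% by array were well above background in the Cy5 channel and 55.9 to 74.9% in Cy3. A probe was tested if either channel was well above background on at least 2 arrays, which kept 19752 probes. Of the 13 member probes, 12 (9 genes) were tested and 9 were well above background in both channels on all 6 arrays. The hairpin targets could not be checked well: the Loxl2 probe was well above background in 7 of 12 channels and did not pass in shLoxl2 (log2 fold change 0.11 ± 0.12 SE, adjusted p = 0.59), and the Snai1 probe was above it in 2 of 12 and did not pass in shSnail (−0.09 ± 0.23, adjusted p = 0.82). All 4 shLoxl2 arrays shared 1 scan batch and 1 extraction protocol of the scanner software, and both shSnail arrays another, so batch and silenced gene cannot be told apart where the silenced groups are compared. Of 13 keratinocyte and epithelial markers, 10 were well above background in both channels on all arrays, among them Krt5, Krt14, Krt18, Trp63, Itga6 and Itgb4. Krt8 was so on none, and the rest of the list on some arrays only. The same held for 2 of 10 fibroblast markers (Vim and Pdgfra), with Col1a1 and Thy1 on no array. It held for 4 of 8 leukocyte markers (Cd3e, Cd68, Emr1, Csf1r), with Ptprc and Itgam on no array, and for 0 of 8 endothelial markers.

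In shLoxl2 cells Dusp4 rose and Spred1, at 1 of its 2 probes, fell. In shSnail cells Spred1 and Dusp6 fell, by 4.51-fold (the brighter Spred1 probe) and 4.44-fold, and Dusp4 did not pass the test. Against each other, the shSnail samples were lower in Spred1, Dusp4 and Etv4. Spry1, Spry2, Spred2 and Etv5 passed in none of the 3 comparisons. A probe was called where limma's test gave a Benjamini-Hochberg adjusted p under 0.05 over all 19752 probes. By that rule 3 of the 12 member probes were called in shLoxl2 against shGFP, where 13.9% of all probes were. Of these, 2 were higher (8.08% of all probes) and 1 lower (5.85%). In shSnail against shGFP 3 of 12 were called, all lower, where 21.4% of all probes were called, 8.81% higher and 12.6% lower. In shSnail against shLoxl2 4 of 12 were called, all lower, where 12.8% of all probes were called, 4.24% higher and 8.56% lower. As shares of the 12 probes these are 25%, 25% and 33.3%, of which the second lies near its background. Some of these calls are 2 probes of the same gene. With the brightest tested probe for each of the 9 genes, the shares were 22.2%, 22.2% and 33.3%. Over all genes they were 14.3%, 21.5% and 12.9%. In shLoxl2 the genes so called were 1 higher and 1 lower. The median log2 fold change of the 12 probes was 0 in shLoxl2, −0.27 in shSnail and −0.7 between the silenced groups, beside medians over all probes of −0.01, −0.04 and −0.04. These member medians moved with the processing, from −0.63 to −0.08 in shSnail and from −1.23 to −0.22 between the silenced groups. The comparisons share their shGFP RNA or their arrays and are not independent.

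**Figure D1:**
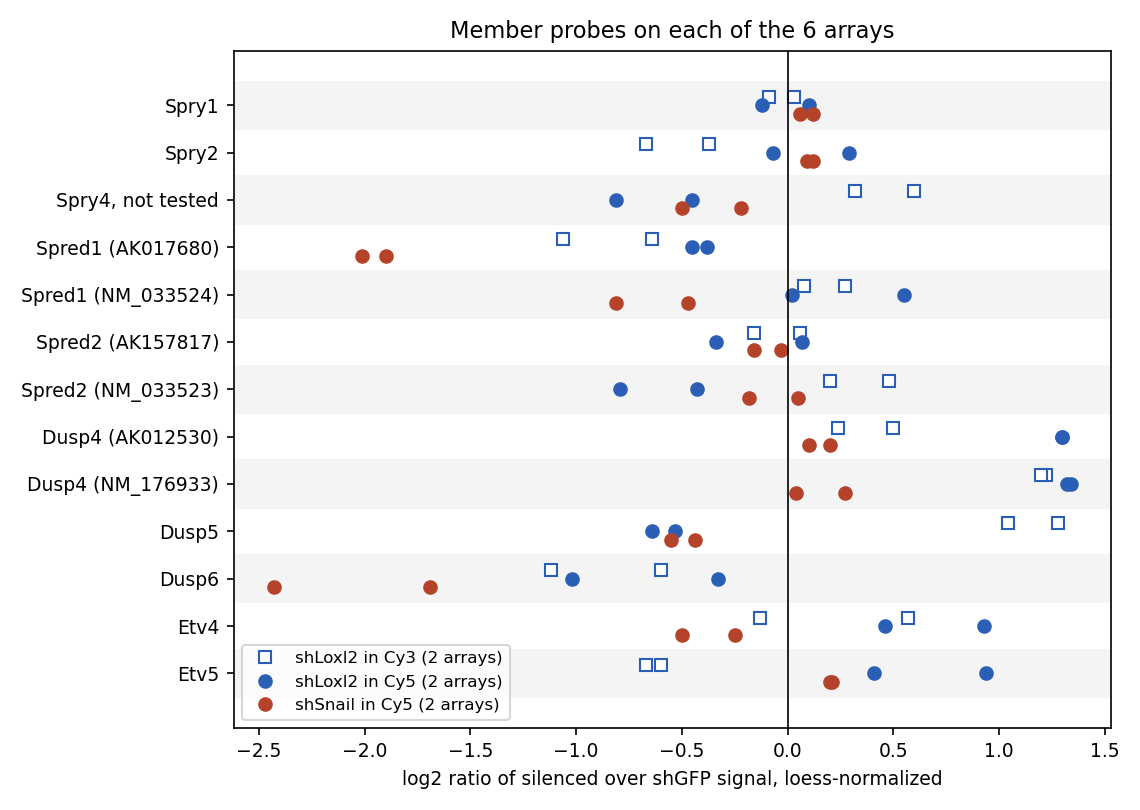
Log2 ratio of silenced over shGFP signal (horizontal axis) for each of the 13 member probes on each of the 6 arrays, 1 symbol per array. Squares are shLoxl2 in Cy3, blue circles shLoxl2 in Cy5 and red circles shSnail in Cy5. Both shSnail arrays lie below all 4 shLoxl2 arrays for Dusp6, Etv4 and both probes of Spred1 and Dusp4. The share of all probes separated in this way is not given here, so the separation only describes these arrays. Squares and blue circles fall on opposite sides of 0 for Dusp5, Etv5, Spry4 and 1 Spred2 probe (NM_033523).

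Dusp6 is a cytoplasmic phosphatase that acts on ERK, and its probe (mm8, chr10:98697039-98697098) was among the bright ones. The log2 ratio of silenced over shGFP signal was −1.12 and −1.02 on the Cy3 and Cy5 arrays of shLoxl2 replicate 1, −0.6 and −0.33 on those of replicate 2, and −2.43 and −1.69 on shSnail replicates 1 and 2. It was negative on all 6 arrays, and both shSnail arrays lay below all 4 shLoxl2 arrays. The share of all probes separated in this way is not given, here or for Dusp4, Spred1 and Etv4 below. Unnormalized mean signals on the shSnail arrays were 10714 and 10167 in the silenced channel and 33460 and 20751 in the shGFP channel. After removing a dye effect of 0.09, Dusp6 fell in shSnail by 2.15 ± 0.29 SE on the log2 scale (4.44-fold, limma adjusted p = 0.00466). It passed in all 14 settings tried, with values from −2.52 to −1.78. In bulk RNA, fewer cells with a transcript and less of it per cell cannot be told apart. In shLoxl2 the estimate was −0.77 ± 0.22 and did not pass (adjusted p = 0.0809). Settings without 1 or both shSnail arrays, which only lend the spread, were the same fit (adjusted p = 0.0167) and not separate results. The estimate's adjusted p was as low as 0.00608 and passed in 7 of 16 settings, these among them. It was −0.47 without shLoxl2 replicate 1 (adjusted p = 0.367) and −1.07 without replicate 2 (adjusted p = 0.0609). The shGFP channel was saturated for Dusp6 on the Cy3 array of replicate 1, so that the ratio of −1.12 there, and the shLoxl2 average that includes it, may understate a fall. Between the silenced groups the estimate for shSnail minus shLoxl2 was −1.38 ± 0.35 and did not pass (adjusted p = 0.0611). Without shLoxl2 replicate 1 that difference passed (−1.73, adjusted p = 0.0258), in a range over settings of 0.00461 to 0.246.

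Dusp4 is a nuclear phosphatase induced by ERK activity. It had 2 probes on chromosome 8 (mm8), at chr8:36287402-36287461 (named by NM_176933) and 2907 bases further on (named by AK012530). At the first, the log2 ratios were 1.22 and 1.34 on the Cy3 and Cy5 arrays of shLoxl2 replicate 1, 1.2 and 1.32 on those of replicate 2, and 0.04 and 0.27 on the shSnail arrays. At the second they were 0.24, 1.3, 0.5 and 1.3 in the same order of shLoxl2 arrays, and 0.2 and 0.1 in shSnail. Every shLoxl2 array was above both shSnail arrays at both probes. The first probe read nearly alike in both dyes (dye effect 0.06), whereas the second carried a dye effect of 0.47. Dusp4 rose in shLoxl2 at both, by 1.27 ± 0.11 SE on the log2 scale (2.41-fold, limma adjusted p = 0.00307) and by 0.83 ± 0.11 (1.78-fold, adjusted p = 0.0082). The rise kept its sign in all 16 settings at both probes. Only with the deposited value table, fitted without shSnail replicate 2, did the first probe miss the threshold (adjusted p = 0.144). Its estimate there, 1.41, was that of the scanner software's log ratios, which passed (adjusted p = 0.0366). The second probe missed the threshold with the value table (0.216), with the scanner software's log ratios (0.0653) and on the Cy3 arrays alone (0.37, adjusted p = 0.0844). Its lowest adjusted p over settings was 0.00277. In shSnail Dusp4 did not pass at either probe (0.09 ± 0.14, adjusted p = 0.681; −0.32 ± 0.14, adjusted p = 0.156). The difference itself was tested: shSnail minus shLoxl2 was −1.17 ± 0.16 (NM_176933, adjusted p = 0.02) and −1.15 ± 0.15 (AK012530, adjusted p = 0.0183), lower in shSnail at both. Against dye-swapped averages with no dye correction it was −1.11 at the first probe and −0.69 at the second. Both still passed by limma (adjusted p = 0.0121 and 0.0358).

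Dusp5, a nuclear phosphatase specific for ERK, was dim and was read differently by the 2 dyes. Its log2 ratios were 1.28 and 1.04 on the Cy3 arrays of shLoxl2, −0.64 and −0.53 on the Cy5 arrays of shLoxl2, and −0.44 and −0.55 on the shSnail arrays, so that the shSnail arrays read as the shLoxl2 arrays of the same orientation did. The dye effect was −0.87, the largest of the 13 member probes. Averaged over dyes, Dusp5 did not pass in shLoxl2 (0.29 ± 0.11 SE, adjusted p = 0.149). In shSnail its estimate was 0.37 ± 0.14 (adjusted p = 0.109) with the dye effect removed, and −0.5 without that correction, which passed (adjusted p = 0.0189). Its direction in shSnail therefore depends on the dye correction.

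**Figure D2:**
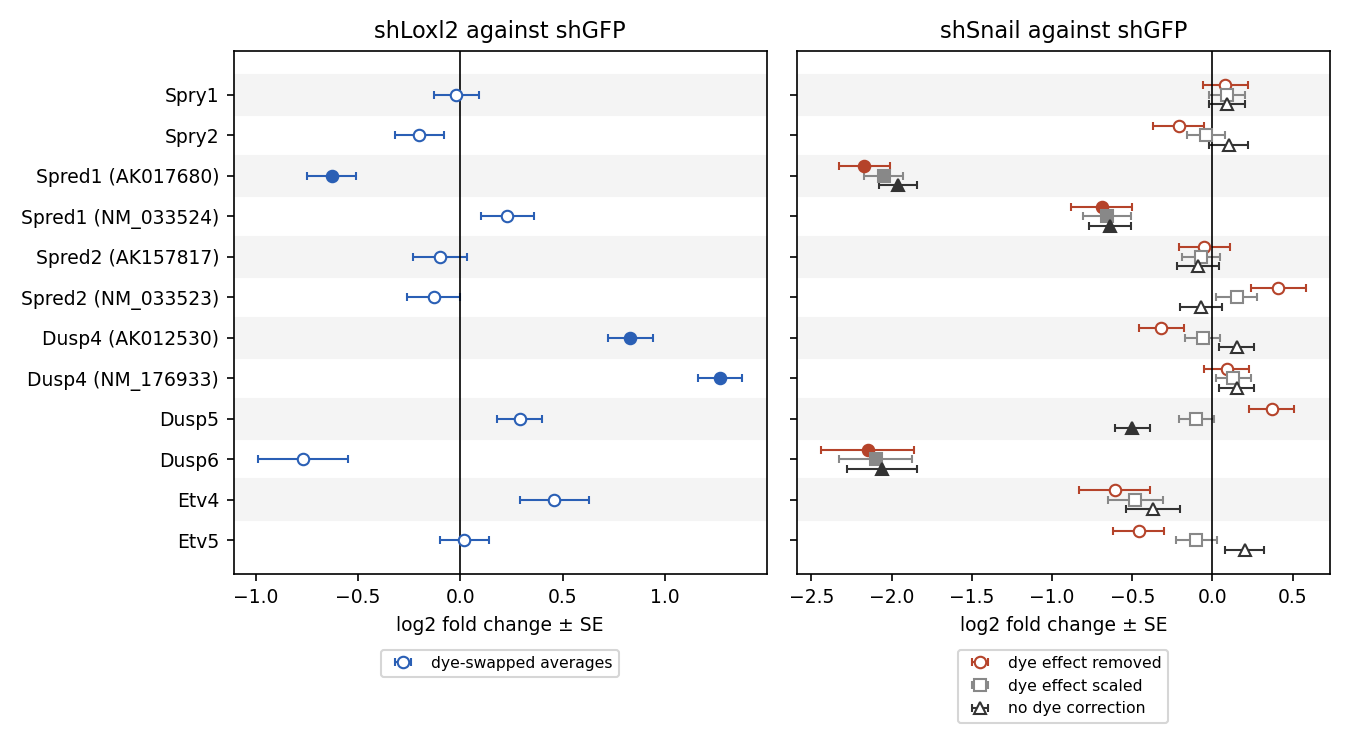
Log2 fold change with its standard error (horizontal axis) for the 12 tested member probes in shLoxl2 (left, n = 2) and shSnail (right, n = 2) against shGFP. Filled symbols passed an adjusted p of 0.05. In the right panel the 3 symbols of a probe are 3 treatments of the dye effect, which leave Spred1 and Dusp6 filled throughout and move Dusp5 from 0.37 to −0.5.

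Spred1, a membrane-bound inhibitor of RAS signalling, had 2 probes on chromosome 2 (mm8). The brighter (named by AK017680) lies at chr2:116873555-116873614, 4794 bases beyond the other (NM_033524). At the brighter probe the log2 ratios were −0.64 and −0.38 on the Cy3 and Cy5 arrays of shLoxl2 replicate 1, −1.06 and −0.45 on those of replicate 2, and −1.9 and −2.01 on the shSnail arrays. All 6 arrays were below 0, and both shSnail arrays were below every shLoxl2 array. Spred1 fell by 2.17 ± 0.16 SE on the log2 scale in shSnail (4.51-fold, limma adjusted p = 0.00127) and passed in all 14 settings, from −2.7 to −1.79. In shLoxl2 it fell by 0.63 ± 0.12 (1.55-fold, adjusted p = 0.0221). Without shLoxl2 replicate 2 this was −0.51 and missed the threshold (adjusted p = 0.0708, in a range over settings of 0.00813 to 0.264). Between the silenced groups the difference was −1.54 ± 0.15 (adjusted p = 0.0164), lower in shSnail.

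The other Spred1 probe was dim, with 7 of 12 channels well above background. Its log2 ratios were 0.27, 0.02, 0.08 and 0.55 in shLoxl2 (replicate 1 in Cy3 and Cy5, then replicate 2) and −0.81 and −0.47 in shSnail. It did not pass in shLoxl2 (0.23 ± 0.13 SE, adjusted p = 0.312), where its sign was opposite to that of the brighter probe. In shSnail it was called lower (−0.69 ± 0.19, limma adjusted p = 0.045). Its silenced channel there was not well above background on either array, so the size of the fall is uncertain. With no dye correction the mean log2 signals were 6.62 in shSnail and 7.26 in shGFP, or 1.56-fold lower. Over settings the estimate ran from −3.8 (scanner software's log ratios) to −0.3 (no background subtraction). The call was lost without any 1 of the 4 replicates: without shLoxl2 replicate 1 (−0.87, adjusted p = 0.0519) or 2 (−0.52, 0.149), and without shSnail replicate 1 (−0.53, 0.229) or 2 (−0.86, 0.0723), in a range over settings of 0.0131 to 0.229. Between the silenced groups it did not pass (−0.93 ± 0.24, adjusted p = 0.0672), although it passed without shLoxl2 replicate 1 (−1.19, 0.0213).

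Spred2, a related inhibitor, had 2 probes 17780 bases apart on chromosome 11 (mm8), both well above background in all 12 channels. The probe named by AK157817 gave −0.16, −0.34, 0.06 and 0.07 in shLoxl2 and −0.16 and −0.03 in shSnail. All 6 values lay near 0, and none of the 3 comparisons passed (shLoxl2 −0.1 ± 0.13 SE, shSnail −0.05 ± 0.16). The probe named by NM_033523 gave 0.2 and 0.48 on the Cy3 arrays of shLoxl2, −0.79 and −0.43 on the Cy5 arrays, and −0.18 and 0.05 in shSnail. Its dye effect was −0.48. It did not pass in shLoxl2 (−0.13 ± 0.13) or, with that effect removed, in shSnail (0.41 ± 0.17, adjusted p = 0.131).

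The Sprouty genes encode inhibitors that act between receptors and RAF. Spry1 was flat: its log2 ratios were 0.03 and 0.1 on the arrays of shLoxl2 replicate 1, −0.09 and −0.12 on those of replicate 2, and 0.06 and 0.12 in shSnail. The estimates were −0.02 ± 0.11 SE in shLoxl2 (adjusted p = 0.927), 0.08 ± 0.14 in shSnail (adjusted p = 0.707) and 0.1 ± 0.16 between them (adjusted p = 0.699). Spry2 gave −0.67 and −0.37 on the Cy3 arrays of shLoxl2, −0.07 and 0.29 on the Cy5 arrays, and 0.09 and 0.12 in shSnail. With a dye effect of 0.32, it did not pass in shLoxl2 (−0.2 ± 0.12, adjusted p = 0.347) or shSnail (−0.21 ± 0.16, adjusted p = 0.386). A missed threshold does not show that these genes were equal in the groups. Spry4 was well above background in 1 of 12 channels and was not tested. Its log2 ratios were 0.32 and 0.6 on the Cy3 arrays of shLoxl2 and ran from −0.81 to −0.22 on the 4 Cy5 arrays, and no fold is given.

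Etv4 and Etv5 are ETS transcription factors. The log2 ratios of Etv4 (mm8, chr11:101586219-101586278) were −0.13 and 0.46 on the Cy3 and Cy5 arrays of shLoxl2 replicate 1, 0.57 and 0.93 on those of replicate 2, and −0.25 and −0.5 in shSnail. Both shSnail arrays were below all 4 shLoxl2 arrays. Against shGFP, Etv4 passed neither in shLoxl2 (0.46 ± 0.17 SE, adjusted p = 0.143) nor in shSnail (−0.61 ± 0.22, adjusted p = 0.094). The first value was 0.75 without shLoxl2 replicate 1, which passed (adjusted p = 0.0495), and 0.16 without replicate 2 (adjusted p = 0.504), in a range over settings of 0.0233 to 0.528. Tested directly, shSnail was lower than shLoxl2, with a difference of −1.07 ± 0.22 (2.1-fold, limma adjusted p = 0.0411). That call was lost against dye-swapped averages with no dye correction (−0.83, adjusted p = 0.0647; range over settings 0.00671 to 0.207).

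Etv5 followed the dye. Its log2 ratios were −0.6 and −0.67 on the Cy3 arrays of shLoxl2, 0.94 and 0.41 on the Cy5 arrays, and 0.21 and 0.2 in shSnail, and its dye effect was 0.66. It did not pass in shLoxl2 (0.02 ± 0.12 SE, adjusted p = 0.929). In shSnail the estimate was −0.46 ± 0.16 (adjusted p = 0.0966) with that effect removed, whereas both uncorrected arrays were above 0. With the dye effect scaled rather than removed in full, the estimate was −0.1. Between the silenced groups it was −0.48 ± 0.22 (adjusted p = 0.205), with −0.74 without shLoxl2 replicate 2 and −0.21 without replicate 1. Against dye-swapped averages the difference was −0.12 with the dye effect scaled (limma adjusted p = 0.695). With no dye correction it was 0.18 (adjusted p = 0.488), so its sign depended on the dye correction.

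The 4 member probes called between the silenced groups were at Spred1, Dusp4 (both) and Etv4. None was called when either shSnail array was left out. By limma 5 member probes then had an unadjusted p under 0.05 without replicate 1 and 6 without replicate 2, and over all probes 47 and 39 were called. The 4 values kept their sign and lay between −1.6 and −0.95, with adjusted p from 0.0856 to 0.207. The lone shSnail array was assumed to vary like the shLoxl2 arrays.

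**Figure D3:**
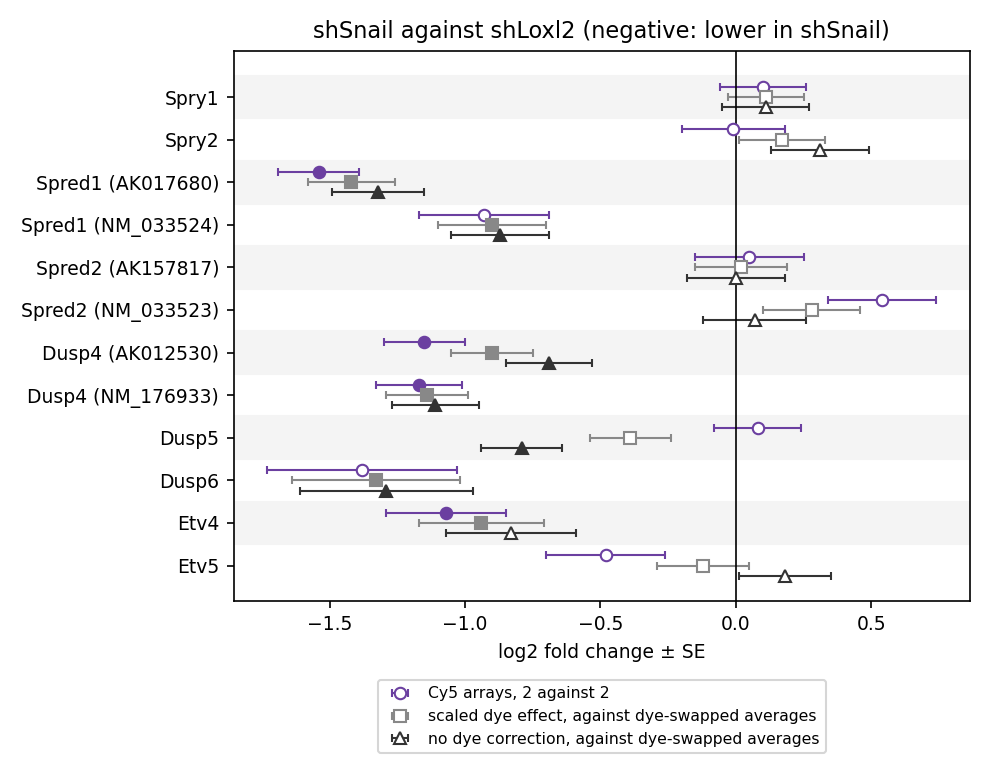
Difference in log2 ratio between shSnail and shLoxl2 with its standard error (horizontal axis; negative values are lower in shSnail) for the 12 tested member probes, n = 2 per group, under 3 treatments of the dye. Filled symbols passed an adjusted p of 0.05. The brighter Spred1 probe (AK017680) and both Dusp4 probes are filled under all 3, and Etv4 is open without dye correction.

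Other genes of the pathway were read from lists, with the brightest tested probe for each gene. Of all 18502 genes so represented, 14.3% were called in shLoxl2 (8.37% higher and 5.89% lower), 21.5% in shSnail (9.08% higher and 12.4% lower) and 12.9% between the silenced groups (4.36% and 8.58%). Among 23 other genes of ERK output, such as immediate-early genes and growth factor ligands, 6 were lower and 2 higher in shLoxl2, with a median log2 fold change of −0.42. In shSnail 11 were lower and 0 higher, with a median of −0.99, beside −0.01 and −0.04 over all genes. Hbegf, a ligand of the EGF receptor, was −2.31 ± 0.3 SE in shLoxl2 (adjusted p = 0.00769) and −2.96 ± 0.4 in shSnail (adjusted p = 0.00464). Ereg, another ligand of that receptor, was −2.29 ± 0.2 (adjusted p = 0.00265) and −1.75 ± 0.25 (adjusted p = 0.00578). Areg, also such a ligand, was saturated in the shGFP channel of all 4 shLoxl2 arrays, so that only a bound holds there (at least 4.1-fold lower, adjusted p = 0.00716). On the shSnail arrays, where neither channel was saturated, it was −2.23 ± 0.34, and −2.29 without the dye effect taken from those saturated arrays. Hmga2, a chromatin protein of growing cells, was −1.49 ± 0.16 and −1.63 ± 0.2. Of the other direction in shLoxl2, Bcl2l11, a cell-death gene that ERK represses, rose by 0.96 ± 0.11 (adjusted p = 0.00538). In shSnail 10 of the 11 lower genes also passed without dye correction, all but Plau. Without shSnail replicate 1, 4 genes of the list were called in shSnail, all lower, and with no or a scaled dye correction 18 were, 17 of them lower. In shLoxl2, where the list had 8 calls, it had 12 without replicate 2, 13 on the Cy5 arrays alone and 3 with the scanner software's log ratios. Between the silenced groups 2 of the 23 were lower, Ier3 (−1.49 ± 0.2) and Plau (−1.04 ± 0.16), and 0 higher. That count was 9 without shLoxl2 replicate 1, all lower, and 0 without either shSnail array (limma, with at least 4 genes at an unadjusted p under 0.05).

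Of 19 other phosphatases and receptor feedback inhibitors, 3 were higher and 1 lower in shLoxl2, and 2 higher and 3 lower in shSnail. Cbl, a ubiquitin ligase that downregulates receptors, rose in shLoxl2 by 1.2 ± 0.14 SE (adjusted p = 0.00576), and Dusp3, a phosphatase of MAP kinases, by 0.74 ± 0.16 (adjusted p = 0.0353). Dusp7, a cytoplasmic ERK phosphatase of the Dusp6 group, was −0.02 in shLoxl2 and fell by 2.09 ± 0.27 in shSnail (4.24-fold, adjusted p = 0.00401). It was also lower in shSnail than in shLoxl2 (−2.06 ± 0.27, adjusted p = 0.0178). Sh3kbp1, an adaptor of Cbl, fell in both, by 0.87 ± 0.12 and by 1.8 ± 0.21, and Rasal2, a RAS GTPase-activating protein, fell in shSnail by 2.08 ± 0.32. Il17rd, a membrane inhibitor of FGF signalling, was called higher in shSnail (0.61 ± 0.14, adjusted p = 0.0237), and was 0.06 without dye correction (adjusted p = 0.672). The balance of directions in shLoxl2 changed with the processing, where median centring gave 3 higher and 3 lower, the Cy5 arrays alone 4 and 4, and the scanner software's log ratios 0 calls by limma, with 5 genes at an unadjusted p under 0.05. Without shLoxl2 replicate 1, 2 genes of this list were called in shLoxl2. In shSnail 3 were called, all lower, without shLoxl2 replicate 2, shSnail replicate 1 or shSnail replicate 2, in place of 5.

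In the cascade itself, 5 of 34 genes were lower and 2 higher in shLoxl2, and 6 were lower and 4 higher in shSnail. Nras, a RAS GTPase, was −0.58 ± 0.11 SE in shLoxl2 and −1.17 ± 0.16 in shSnail (adjusted p = 0.0218 and 0.00473), and the related Rras2 was −1.48 ± 0.17 and −1.17 ± 0.22 (adjusted p = 0.00605 and 0.0142). Map2k1, which encodes MEK1, fell in shLoxl2 by 0.7 ± 0.11 (adjusted p = 0.0146). In shSnail the RAS GTPase-activating protein gene Rasa1 fell by 2.09 ± 0.16 (adjusted p = 0.00127) and Mknk1, a kinase downstream of ERK, by 2.41 ± 0.33 (adjusted p = 0.00489). All 10 cascade calls in shSnail also passed without dye correction. Without shLoxl2 replicate 1, 3 cascade genes were called in shLoxl2, and without shSnail replicate 1, 5 were called in shSnail.

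Among 21 other ETS factors, 2 were higher and 0 lower in shLoxl2, the epithelial factor Ehf (1.5 ± 0.17 SE, adjusted p = 0.00571) and Etv2 (0.92 ± 0.13, adjusted p = 0.00968). In shSnail 3 were lower and 2 higher, and 2 of these 5 calls also passed without dye correction. Those were Etv1, the third PEA3 factor beside Etv4 and Etv5 (−0.89 ± 0.14, adjusted p = 0.00683), and Ets1 (−1.32 ± 0.35, adjusted p = 0.0392). Etv1 was lower in shSnail than in shLoxl2 as well (−0.97 ± 0.15, adjusted p = 0.0239). Of 15 FGF receptor and pathway genes, 6 were lower and 0 higher in shSnail, where the median was −0.52, and 2 were lower and 1 higher in shLoxl2. The ligand Fgf18 fell in both, by 1.64 ± 0.11 and 0.93 ± 0.14, as did Flrt3, a membrane protein that binds FGF receptors, by 1.37 ± 0.2 and 2.2 ± 0.26. Of 19 genes of the p38 and JNK branch, 6 were higher and 2 lower in shLoxl2. Gadd45b (2.25 ± 0.18, adjusted p = 0.00233) and Gadd45g (1.37 ± 0.11, adjusted p = 0.00253), stress sensors upstream of p38 and JNK, rose there while Gadd45a fell by 0.85 ± 0.11. In shSnail 5 of that branch were lower and 1 higher, and 1 of these 6 calls, Gadd45a (−1.53 ± 0.14), also passed without dye correction. Without shSnail replicate 1 the calls in shSnail numbered 3 for the FGF list, 3 for the ETS list and 2 for the p38 and JNK branch. Without shSnail replicate 2 they numbered 4, 2 and 1, and without shLoxl2 replicate 1 the p38 and JNK branch had 2.

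**Figure D4:**
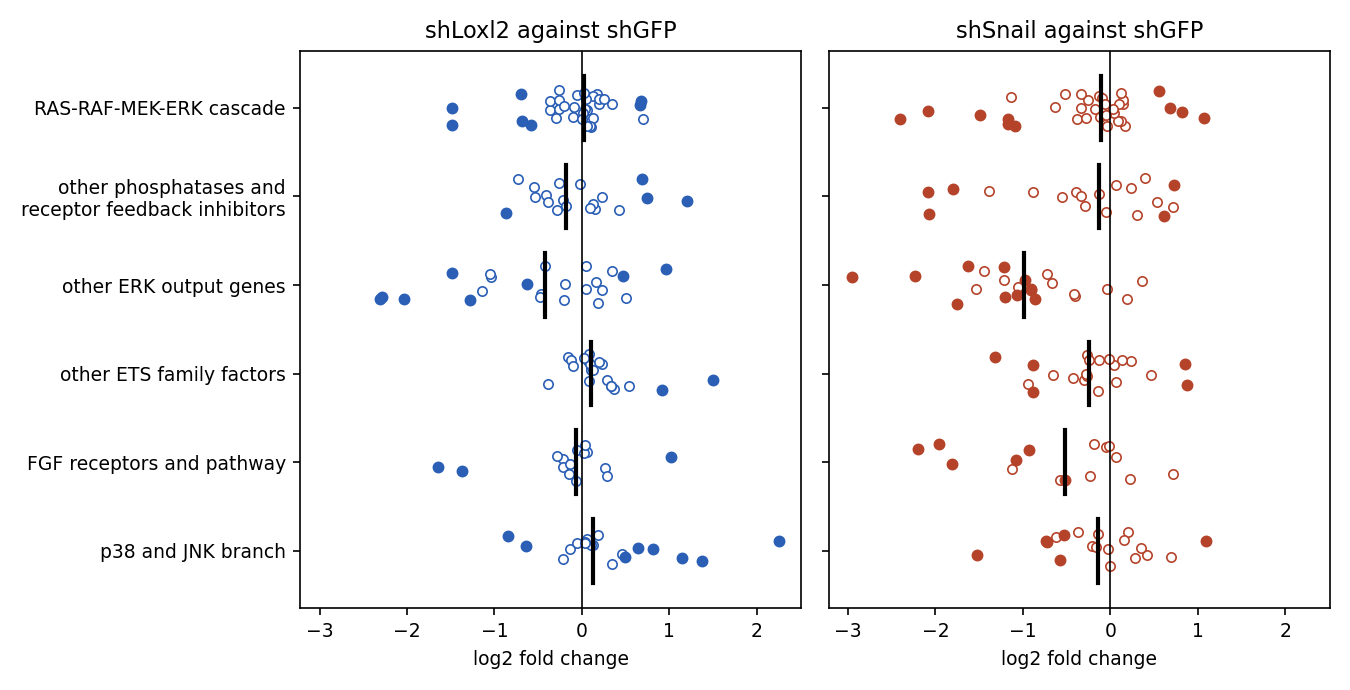
Log2 fold change (horizontal axis) of every tested gene in 6 lists of pathway genes, in shLoxl2 (left) and shSnail (right) against shGFP, 1 circle per gene. Filled circles passed an adjusted p of 0.05 and the bar is the list's median. The bar of the other ERK output genes lies at −0.42 in shLoxl2 and −0.99 in shSnail.

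Epithelial markers moved in the same comparisons. Of 13 keratinocyte and epithelial markers, 3 were higher and 4 lower in shLoxl2, and 2 higher and 7 lower in shSnail, where Itgb4, Dsp, Trp63, Pkp1, Itga6, Sfn and Krt14 were lower. For each marker list the signal was summed after background correction and normalization within and between arrays. For these 13 the sum ran from 185000 to 227000 in the shLoxl2 channels. It was 139000 on both shSnail arrays and ran from 242000 to 312000 in the shGFP channels, over both dyes. Between the silenced groups 7 of the 13 were lower in shSnail and 1 higher. Without either shSnail array 0 of the 13 were called by limma, with at least 8 at an unadjusted p under 0.05. The fibroblast list summed to 8010 to 37800 in shLoxl2, 29100 to 31700 in shSnail and 6190 to 40200 in shGFP, and the leukocyte list to at most 3590, 4310 and 4060. The endothelial list summed to at most 1120, 1150 and 1180. Their part in the values of Dusp6, Spred1, Dusp4 and Etv4 was not tested.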

How the data were processed

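RNA of shLoxl2 and shSnail cells was compared with shGFP RNA on 6 Agilent 2-colour arrays, with the direction of each ratio taken from the dyes in the labels. The authors deposited the spot intensity values and quality flags that Agilent's Feature Extraction software wrote, whose version is 9.5.1.1 in the headers and 6.1.1 in the submitters' processing notes. The scanner software's log10 ratios of Cy5 over Cy3 are in the same files, per the file headers. The value table deposited by the authors holds these log10 ratios rounded, within 0.006 of the scanner files at 100% of spots. There the column for shSnail replicate 2 instead holds the values of replicate 1, so that table served only as an alternative for shLoxl2. Its fit left out shSnail replicate 2, so fewer arrays gave the spread than in the fit of the scanner software's log ratios. The series' design text counts 3 hybridisations per condition, whereas the labels give 4 and 2, which were followed. Probe coordinates are those of the files (mm8), and exons and UTRs were not analysed here.

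Mean intensities were corrected with normexp (offset 50) and loess in limma 3.58.1 (R 4.3.3, data.table, version 1.17.8) with 736 control spots, and outliers, given weight 0. Averaging repeated spots turned 21318 spots into 20868 probes. For shLoxl2 the dye effect was cancelled by averaging the 2 arrays of a number after turning 1 sign. For shSnail each probe's dye effect, from those pairs, was removed in full. The shSnail ratios followed that effect with a slope of only 0.453, so full removal may overcorrect. Fits with the effect scaled by this slope, or not removed, are the alternatives. In the main shSnail fit the spread also includes that of the dye effect between the 2 shLoxl2 pairs. The silenced groups were compared on the 4 Cy5 arrays, where a dye effect cancels only if it is equal in both groups. With the slope of 0.453 in shSnail, this comparison may overcorrect as well. Its alternatives set shSnail, with the effect scaled or not removed, against the dye-swapped averages of shLoxl2. All p-values are from limma (lmFit, then eBayes) after Benjamini-Hochberg adjustment. The code was tested on simulated data in which the shSnail arrays carried the full dye effect. That test therefore cannot show whether full removal is right for the real arrays. The number of arrays limits the precision.

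Members, lists and motifs were chosen with earlier results of these data known, and Peo1, entered in a list by a wrong symbol, was dropped after its values were seen. Named genes are all members, both targets and, of each list, some of the 4 with the smallest p per comparison, with Plau, and values of Dusp7 and Rras2 in the other comparison, given beside them. 1 gene of the lists is not reported here by name. Alternatives changed background correction, normalization, starting values, filter, dye handling, block and replicates.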

Additional observations from a re-analysis of the deposited data

Results flagged for a closer look

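Both silencings were set against the same control, and the test of the difference between them passed for 4 member probes. The difference in log2 ratio, shSnail minus shLoxl2, was −1.54 for Spred1 (AK017680; limma adjusted p = 0.0164), −1.17 and −1.15 for Dusp4 (NM_176933 and AK012530; adjusted p = 0.02 and 0.0183) and −1.07 for Etv4 (adjusted p = 0.0411). Each is lower in shSnail, on 2 against 2 Cy5 arrays. Against dye-swapped averages with no dye correction the values were, in the same order, −1.32, −1.11, −0.69 and −0.83. The last, for Etv4, did not pass by limma (adjusted p = 0.0647). Scan batch and silenced gene cannot be told apart here.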

How the results depend on the processing

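With 2 samples per group, few residual degrees of freedom and dim Cy3 channels (55.9 to 74.9% of spots well above background) limit what can be called. Of the member probes' values under other settings, 155 of 177 in shLoxl2, 144 of 153 in shSnail and 129 of 153 between the groups stayed on their side of the threshold. A value that did not pass could change sign and still be counted. Dusp5 in shSnail did so, with 0.37 in the main fit and −1.48 with the scanner software's log ratios. In shLoxl2 the settings without 1 or both shSnail arrays were the same fit, though counted separately here and in the list counts. Of the counts of calls in the pathway and marker lists, 112 of 149, 95 of 129 and 88 of 129 stayed within 1.5 times. The causes of the changes below were not tested.

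In shLoxl2, where 2751 probes were called, 776 were with the scanner software's log ratios (1 member probe, member median −0.16) and 0 with the value table (0 member probes by limma, median −0.16; 3476 probes and 4 member probes at an unadjusted p under 0.05). Arrays of 1 orientation gave 7636 in Cy5 (7 member probes, median 0.05) and 6712 in Cy3 (6 member probes, median 0.07). The Cy5 arrays alone turned Dusp5 to −0.58 (adjusted p = 0.0145, range 0.00588 to 0.779) and the Cy3 arrays alone turned Etv5 to −0.64 (adjusted p = 0.0158, range to 0.962). Probes bright in both channels gave a median of −0.1. Leaving out a replicate gave 1747 (without shLoxl2 replicate 1) to 2806 probes, 2 to 4 member probes and a median of 0 to 0.1.

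In shSnail, where 1741 of 4226 calls were higher, median centring gave 8721 calls, 4669 of them higher, and the scanner software's log ratios 4187, 1014 of them higher. The member median of −0.27 was −0.08 with no background subtraction, −0.09 with plain subtraction, −0.63 with scanner log ratios, −0.08 without dye correction and −0.09 with a scaled one. Dusp5 was −0.5 without dye correction. Leaving out a replicate gave 1585 (without shSnail replicate 1; 2002 without 2) to 3173 probes.

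Between the groups, where 837 of 2527 calls were higher, median centring gave 9379, 5022 of them higher, and scanner log ratios 2352, 424 of them higher. The member median of −0.7 was −0.22 and −0.33 with no and with plain background subtraction, −1.23 with scanner log ratios, −0.48 with no filter and −1.07 for bright probes. With no dye correction and dye-swapped averages Dusp5 was −0.79. Leaving out a replicate gave 39 (without shSnail replicate 2; 47 without 1) to 4308 probes (without shLoxl2 replicate 1; 3949 without 2) and 0 to 6 member probes.

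The 2 replicate numbers were not shown to pair the samples (correlation of same-numbered deviations 0.323 for dye-swapped averages and 0.208 for Cy5 arrays, 2 pairs). With the replicate number as a block, 4172 probes were called in shLoxl2, 4120 in shSnail and 2720 between the groups. Under the block Dusp6 passed in shLoxl2 (adjusted p = 0.00608) and between the groups (0.0312), Spred1 (NM_033524) passed between the groups (0.0399) and Etv4 did not (0.061). It changed no other member call. In the pathway lists the block gave 15 calls among other ERK output genes in shLoxl2 (3 higher and 12 lower, against 8) and 9 among other phosphatases and feedback inhibitors (4 and 5, against 4). Between the groups these lists had 5 calls each.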
